A study of Mus musculus with 16 samples.

Results

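Small nuclear and nucleolar RNAs were followed in embryonic mouse hearts with altered alleles of Tbx5, and 78 of the 37991 genes of the authors' table made up the set. An entry was taken when its symbol began as those of small nucleolar RNAs (Snora, Snord, snoZ, snoU), small Cajal body RNAs (Scarna) or Rnu genes, or was that of 7SK RNA, of a spliceosomal small nuclear RNA or of the RNA of RNase P or RNase MRP. It also needed at least 160 raw counts summed over the 16 libraries. Of 3213 such symbols, 2014 had 0 counts in all libraries and 1121 had 1 to 159 counts, and the 78 members held 80.1% of the counts of all of them. SNORA53, with 160 counts, lay just inside the minimum. SNORD113 (ENSMUSG00000088820), SNORA57 and U6 (ENSMUSG00000087714), with 159 counts each, lay just outside it. The members comprise 12 entries of 7SK RNA, 20 box C/D small nucleolar RNAs (snoRNAs), 21 box H/ACA snoRNAs, 8 small Cajal body RNAs (scaRNAs), 15 spliceosomal small nuclear RNAs (snRNAs) and 2 other snoU entries. Neither the RNase P RNA nor the RNase MRP RNA is among them.

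Whole hearts of E10.5 embryos were sequenced in bulk, with 4 libraries for each of 4 genotypes. Wild type (WT) carried no altered Tbx5 allele, Tbx5 del/+ carried the del allele over a normal one, Tbx5 CreERT2/+ carried the CreERT2 allele over a normal one, and Tbx5 CreERT2/del carried both altered alleles. The labels name no treatment and give neither what the del allele lacks nor how CreERT2, a Cre recombinase fused to an estrogen receptor domain, was placed in the gene. They do not say whether libraries of 1 genotype came from separate embryos or litters, so the p-values below speak of the spread among these libraries alone, and that spread may be technical. Levels below are in CPM, the counts over each library's own scaled total, with library sizes corrected by the trimmed mean of M-values (TMM).

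7SK RNA is an abundant nuclear RNA, transcribed from its own gene by RNA polymerase III. With the proteins Larp7, Mepce and Hexim1 it holds P-TEFb, the kinase that releases paused RNA polymerase II, in an inactive complex. Box C/D snoRNAs guide ribose methylation and box H/ACA snoRNAs guide pseudouridylation, mostly of ribosomal RNA, while scaRNAs do the same for snRNAs in Cajal bodies. Most mammalian snoRNAs are cut out of introns of other genes. None of these RNAs normally ends in a long poly(A) tail, and the labels name polyA RNA as the molecule that was sequenced.

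The results turn on few of the 78 sequences, which are shown here 5′ to 3′ as DNA letters. They were taken by Ensembl identifier from the GENCODE vM21 transcripts of build GRCm38, which held 70 of the 78 members, all 70 at the length given in the authors' table, whose own positions are in mm9. The first pair is the 7SK entry that holds most counts, on the minus strand of chromosome 9 (chr9:78023110-78023440 in mm9, ENSMUSG00000065037, named Rn7sk in GENCODE), and a 7SK copy on the plus strand of chromosome 15 (chr15:93064794-93065131, ENSMUSG00000065911). The capitals mark the 241 bases from the 5′ end that are identical in both, and they matter because a read from this stretch matches either entry. Of both, the first 300 bases are printed.
7SK chromosome 9: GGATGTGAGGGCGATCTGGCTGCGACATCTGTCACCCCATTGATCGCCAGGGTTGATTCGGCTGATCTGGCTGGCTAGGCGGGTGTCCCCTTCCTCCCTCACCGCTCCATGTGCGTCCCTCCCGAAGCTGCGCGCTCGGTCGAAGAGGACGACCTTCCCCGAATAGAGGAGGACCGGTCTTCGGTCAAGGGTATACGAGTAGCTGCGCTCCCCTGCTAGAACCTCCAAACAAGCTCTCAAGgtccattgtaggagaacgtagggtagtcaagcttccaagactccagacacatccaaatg
7SK chromosome 15: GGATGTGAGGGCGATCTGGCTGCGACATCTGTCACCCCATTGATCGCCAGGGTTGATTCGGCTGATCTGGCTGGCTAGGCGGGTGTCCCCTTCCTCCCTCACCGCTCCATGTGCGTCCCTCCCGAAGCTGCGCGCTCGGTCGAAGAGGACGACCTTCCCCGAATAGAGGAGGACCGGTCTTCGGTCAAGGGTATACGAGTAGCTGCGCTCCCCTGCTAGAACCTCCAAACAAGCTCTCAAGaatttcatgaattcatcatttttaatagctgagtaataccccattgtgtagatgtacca

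The next 6 sequences are snoRNAs and scaRNAs whose values the results below turn on. Capitals mark TGATGA within the first 20 bases and CTGA within the last 20, the letters of boxes C and D, read on the RNA's own strand. snoZ40 (chr9:15119966-15120039, plus strand) lies in an intron of Taf1d. Both SNORD113 entries (ENSMUSG00000064452, chr12:110869284-110869358, and ENSMUSG00000088294, chr12:110874222-110874294, plus strand) lie in introns of Rian, a long noncoding RNA gene. snoU2_19 (chr9:15130908-15130983) and Scarna9 (chr9:15130708-15130777) are neighbours in an intron of 5830418K08Rik, on the minus strand. Scarna2 (chr3:108357256-108357669, minus strand) lies outside every other gene of the table, and its last 300 bases are printed.
snoZ40: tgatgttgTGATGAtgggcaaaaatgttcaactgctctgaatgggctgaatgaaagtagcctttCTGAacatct
SNORD113 (ENSMUSG00000064452): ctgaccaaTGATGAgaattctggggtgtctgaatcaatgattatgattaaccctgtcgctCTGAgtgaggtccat
SNORD113 (ENSMUSG00000088294): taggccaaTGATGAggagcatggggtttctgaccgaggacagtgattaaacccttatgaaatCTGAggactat
snoU2_19: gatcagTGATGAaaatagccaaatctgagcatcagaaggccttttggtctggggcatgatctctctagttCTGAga
Scarna9: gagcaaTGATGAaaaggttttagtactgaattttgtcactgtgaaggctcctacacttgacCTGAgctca
Scarna2: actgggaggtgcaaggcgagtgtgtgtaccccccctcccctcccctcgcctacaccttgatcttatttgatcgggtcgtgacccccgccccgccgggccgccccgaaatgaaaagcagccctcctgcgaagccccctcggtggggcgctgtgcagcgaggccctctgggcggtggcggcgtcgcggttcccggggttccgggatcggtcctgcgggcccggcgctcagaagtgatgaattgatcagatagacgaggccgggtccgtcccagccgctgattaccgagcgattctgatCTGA
Of 16 matched box C/D entries under 200 bases, 8 held TGATGA in the first 20 bases and 12 held CTGA in the last 20. Among all reference transcripts the shares were 0.700% and 9.24%. Snora23 (chr7:117189878-117190061, plus strand), the box H/ACA snoRNA with the highest level per length, lies in an intron of Ipo7. The capitals in it mark the ACA that ends 3 bases before the 3′ end, which 13 of 21 box H/ACA entries and 2.45% of all reference transcripts held at that place.
Snora23: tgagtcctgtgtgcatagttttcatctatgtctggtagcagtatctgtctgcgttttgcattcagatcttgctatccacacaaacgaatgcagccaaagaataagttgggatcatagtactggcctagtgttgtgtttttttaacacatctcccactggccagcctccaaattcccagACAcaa

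Library totals ran from 21436305 to 42731841 counts, and mitochondrial ribosomal RNA took 42.3% to 78.3% of them. CreERT2/+ 3 (42.3%), CreERT2/del 3 (53.6%) and WT 4 (60.6%) held the least of it. The members took 0.0209% to 0.0280% of the counts outside mitochondrial ribosomal RNA in WT and 0.0399% to 0.225% in the altered genotypes. Tbx5 ranged between 13.7 and 25.7 CPM in WT hearts; del/+ hearts had 24.8 to 41.5, CreERT2/+ hearts 18.1 to 39.2 and CreERT2/del hearts 20.3 to 24.2. Counts over the whole gene do not check the loss of a part of it. The heart muscle genes Tnnt2 and Myh6 were present in every library, at 660.4 to 2027 and 259.5 to 654.1 CPM. Alb, a liver gene, reached 51.4 CPM in del/+ 1 and stayed at or below 5.05 CPM elsewhere, and 7SK was highest in del/+ 2, where Alb was at 0.0400 CPM. The part of liver tissue in the level of 7SK was not tested.

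7SK RNA was higher than in WT in all 3 altered genotypes, and it carried most of the set's counts. The chromosome 9 entry alone held 16.8% to 32.8% of the members' counts in WT libraries and 70.2% to 89.1% in del/+ libraries. In WT its level was 12.7, 29.6, 12.3 and 13.3 CPM in libraries 1 to 4. In del/+ it was 194.3, 691.4, 174.1 and 296.0 CPM. These groups do not overlap, and the lowest del/+ library stood far above the highest WT library. In CreERT2/+ it was 162.7, 150.3, 31.0 and 137.3 CPM, and in CreERT2/del it was 138.0, 218.1, 46.4 and 76.6 CPM. Neither of these groups overlapped WT, and in both the lowest library was number 3, the one with the least mitochondrial ribosomal RNA in its genotype.

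**Figure D1:**
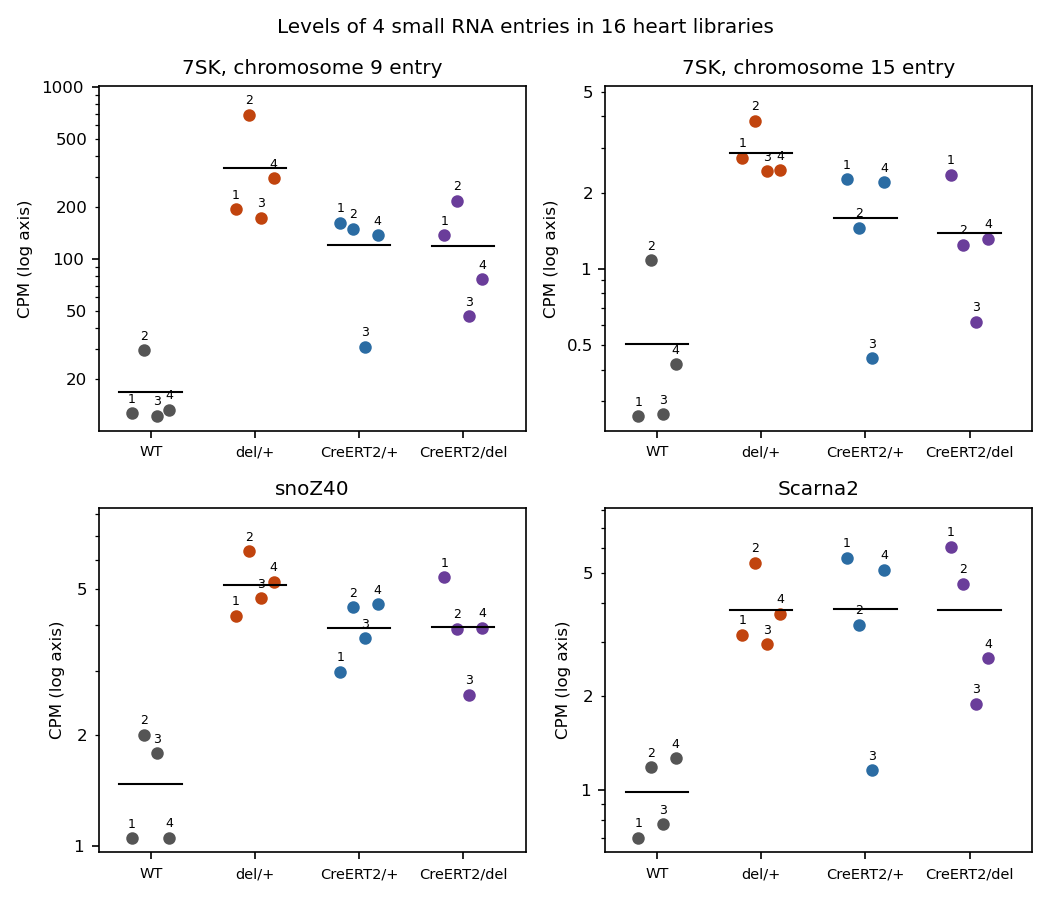
Levels in CPM (log axis) of 4 entries in each of the 16 libraries, grouped by genotype; points are libraries with their number, and bars are group means. The 4 del/+ libraries lie above the 4 WT libraries for every entry shown, and CreERT2/+ 3 is the lowest library of its genotype for all but snoZ40.

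On the log2 scale the chromosome 9 entry differed from WT by 4.32 ± 0.57 (SE, n = 4 and 4 libraries) in del/+, with adjusted p = 5.66e-04 in edgeR's quasi-likelihood test with Benjamini-Hochberg adjustment over 14612 genes. It differed by 2.82 ± 0.53 in CreERT2/del, with adjusted p = 0.0179. In CreERT2/+ the difference was also 2.82 ± 0.53, and with adjusted p = 0.0562 it missed the threshold of 0.05. Permuting the libraries exactly, two-sided, on log2(CPM + 1) gave p = 0.0286 in each of the 3 comparisons, the smallest p that 4 against 4 libraries allow. It restates that the groups do not overlap. As this entry was known from earlier results of these data, it is no independent support. That exact p was 0.0571 in CreERT2/+ without any one of the 4 WT libraries, and in CreERT2/del without WT 1, WT 3 or WT 4. All 3 comparisons share the WT libraries. In bulk RNA, more cells of a type that makes an RNA cannot be told apart from more of that RNA per cell.

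Single libraries decided the call in part. Without WT 1, WT 3, WT 4 or CreERT2/del 2 the CreERT2/del difference lay at an adjusted p of 0.0826, 0.0760, 0.0661 and 0.0958. Without del/+ 2, CreERT2/+ 3, CreERT2/del 2 or CreERT2/del 3 the CreERT2/+ difference passed, at 0.0252, 6.83e-04, 0.0481 and 0.0267. The del/+ difference passed without any one of the 16 libraries, at 0.00624 or below.

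The chromosome 15 copy of 7SK was also highest in del/+, at a far lower level. Its CPM was 0.262, 1.08, 0.267 and 0.421 in WT and 2.74, 3.84, 2.43 and 2.45 in del/+. These groups did not overlap, and the difference of 2.48 ± 0.52 on the log2 scale had an adjusted p of 0.0612. It passed without WT 2 (0.0136), CreERT2/+ 3 (0.00577) or CreERT2/del 3 (0.0498). In CreERT2/+ its CPM was 2.26, 1.45, 0.443 and 2.20, and in CreERT2/del 2.35, 1.25, 0.619 and 1.32. Its counts were 2.07% to 3.65% of those of the chromosome 9 entry in WT and 0.555% to 1.72% in the altered genotypes. Both share the stretch printed in capitals above. The names of the count columns point to a filter on mapping quality, and how reads that match both entries were treated is not stated.

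The 10 copies with a reference transcript were 53.2% to 87.0% identical to the chromosome 9 sequence, and 8 of the 10 lay inside other genes. Summed, the 11 entries other than the one on chromosome 9 reached 7.34 ± 2.06 CPM (SD, n = 4) in WT, 9.30 ± 1.98 in del/+, 9.59 ± 1.94 in CreERT2/del and 9.28 ± 2.04 in CreERT2/+, and the groups overlap. Per kilobase of length, the highest of them were ENSMUSG00000088456 at 5.94, the chromosome 15 copy at 4.69, ENSMUSG00000088170 at 3.75 and ENSMUSG00000088298 at 2.89 CPM per kb, against 450.2 for the chromosome 9 entry. ENSMUSG00000088456, inside Adk, had 0.946 ± 0.619 CPM in WT and 2.04 ± 1.01 in CreERT2/del, an unadjusted p of 0.0287 and an adjusted p of 0.710.

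Proteins that work with 7SK were tested as a list of 15 genes, with 7SK's binding partners, the subunits of P-TEFb and elongation factors that P-TEFb joins. Of these, 0 passed in any comparison with WT by edgeR, and the median difference was -0.09 in del/+, -0.01 in CreERT2/del and 0.03 in CreERT2/+ on the log2 scale. Hexim1, the inhibitor that 7SK presents to P-TEFb, differed by -0.05 ± 0.38, 0.27 ± 0.38 and 0.27 ± 0.38. Larp7, which binds the 3′ end of 7SK, differed by -0.17 ± 0.22, -0.03 ± 0.22 and -0.29 ± 0.22. Mepce, which caps its 5′ end, differed by 0.15 ± 0.23, 0.19 ± 0.23 and 0.03 ± 0.23. The kinase gene Cdk9 differed by -0.13 ± 0.25, -0.14 ± 0.25 and -0.11 ± 0.25. Ccnt2, one of its cyclins, had the lowest unadjusted p of the list in del/+ (0.0282), at -0.45 ± 0.19. The sum over the 15 genes was 548.0 to 621.0 CPM in WT and 381.4 to 603.3 CPM in the altered genotypes.

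Across the 78 entries, 2 passed the threshold as higher in del/+ than in WT (2.56%, against 0.109% of all 14612 genes), and 3 in CreERT2/del (3.85%, against 0.185%). They were the chromosome 9 entry of 7SK and snoZ40 in both comparisons, and Scarna2 in CreERT2/del. In CreERT2/+ 0 passed by edgeR (all genes: 0.0342%), while 10 lay under an unadjusted p of 0.05 as higher and 0 as lower. There DESeq2 called 3 members (all genes 0.144%) and limma-voom 1 (all genes 0.0274%). No member passed as lower than WT in any comparison, where edgeR called 0.00684%, 0% and 0.151% of all genes in del/+, CreERT2/+ and CreERT2/del. At an unadjusted p under 0.05, 12 members were higher and 3 lower in del/+ (all genes 3.13% and 2.68%), and 13 were higher and 0 lower in CreERT2/del (3.13% and 2.53%). The members' own shares as higher were 15.4% and 16.7%, and 12.8% in CreERT2/+, where it was 2.44% of all genes as higher and 1.27% as lower. The count minimum is a sum over all genotypes, so a scarce member can meet it through a group where it is high. Scarna13 and U3 (ENSMUSG00000070168) did so through del/+, and SNORD113 (ENSMUSG00000089517) and SNORA53 through CreERT2/del. Others did so through WT, among them U6 (ENSMUSG00000089613), U6 (ENSMUSG00000064615) and U4 (ENSMUSG00000088250). Groups without overlap, with the altered genotype higher, were found for 9 members in del/+ (all genes 2.18%), 3 in CreERT2/+ (1.05%) and 7 in CreERT2/del (2.31%). With the altered genotype lower they were found for 1, 2 and 2 members (all genes 1.88%, 0.602% and 1.96%).

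The counts of members past the threshold changed with the libraries used. With the share of mitochondrial ribosomal RNA as a covariate, 5 members passed in del/+, 3 in CreERT2/del and 3 in CreERT2/+. Of all genes, 0.294%, 0.883% and 0.144% passed there. Without CreERT2/+ 3, CreERT2/del 3 and WT 4 the counts were 4, 4 and 2 in the same order (all genes 0.299%, 0.661% and 0.23%). Leaving out CreERT2/+ 3 alone gave 4, 3 and 3 (all genes 0.256%, 0.666% and 0.229%). Leaving out WT 1, WT 4 or CreERT2/del 2 gave 0 in CreERT2/del (all genes 0.172%, 0.2% and 0.159%). Leaving out WT 3, CreERT2/del 1 or CreERT2/del 4 gave 1 (all genes 0.205%, 0.198% and 0.166%). In CreERT2/+, leaving out del/+ 2, CreERT2/del 2 or CreERT2/del 3 gave 1 (all genes 0.0526%, 0.0397% and 0.0469%).

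**Figure D2:**
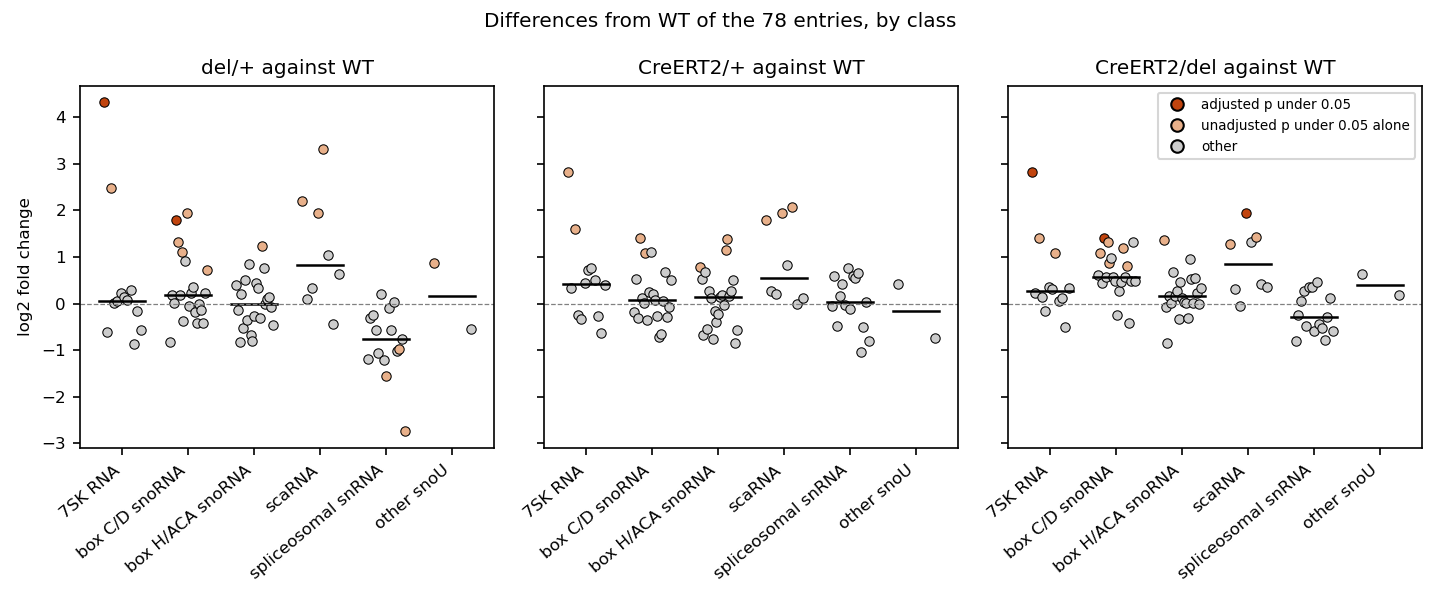
Log2 fold change from WT of each of the 78 entries, by class, in the 3 comparisons; each point is 1 entry, horizontal lines are class medians, and colour gives the result of edgeR's test. The few points past the adjusted threshold all lie above 0, and the entries classed as spliceosomal snRNAs have their median below 0 in del/+.

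Without the chromosome 9 entry of 7SK, the other 77 members summed to 55.5 to 66.1 CPM in WT, 69.8 to 84.4 in del/+, 71.4 to 99.8 in CreERT2/del and 64.1 to 87.9 in CreERT2/+. Only the CreERT2/+ group overlapped WT. The median log2 difference over all 78 members was 0.00 in del/+, 0.32 in CreERT2/del and 0.16 in CreERT2/+, beside -0.02, 0.00 and 0.01 over all tested genes. In CreERT2/del 59 of 78 members (75.6%) lay above 0, beside 49.5% of all genes. Most entries were scarce: 51 of 78 averaged under 1 CPM, and 8 were at 0 in at least 1 library. A count of 0 allows up to 3 counts, or 0.0516 to 0.154 CPM depending on the library, which covers counting error only.

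Among the box C/D snoRNAs, snoZ40 rose in del/+ and in CreERT2/del. It had the highest level per length of its class, 48.9 CPM per kb. Its CPM was 1.05, 2.01, 1.79 and 1.05 in WT and 4.23, 6.36, 4.72 and 5.24 in del/+. It was 2.98, 4.47, 3.68 and 4.56 in CreERT2/+ and 5.39, 3.90, 2.58 and 3.92 in CreERT2/del. Every altered library stood above every WT library. The log2 difference was 1.80 ± 0.28 in del/+ (adjusted p = 0.00318), 1.41 ± 0.28 in CreERT2/del (0.0277) and 1.41 ± 0.28 in CreERT2/+ (0.0845), all by edgeR. Without WT 1, WT 4, CreERT2/del 1, CreERT2/del 2 or CreERT2/del 4 the CreERT2/del value lay at 0.108, 0.0946, 0.117, 0.0841 and 0.0728; without CreERT2/+ 3 the CreERT2/+ value passed, at 0.0399. The snoZ40 call in CreERT2/del was also lost by limma-voom (adjusted p = 0.0555) and in edgeR with only the 2 genotypes compared (0.0630).

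The gene that holds snoZ40, Taf1d, did not pass the threshold; it is a gene for a subunit of the RNA polymerase I factor TIF-IB. Taf1d stood at 23.2, 32.5, 29.9 and 23.0 CPM in WT and 25.1, 29.3, 32.8 and 35.2 CPM in del/+, and these groups overlap. Taf1d differed from WT by 0.17 ± 0.24 in del/+, 0.50 ± 0.24 in CreERT2/del and 0.31 ± 0.24 in CreERT2/+, with adjusted p from 0.887 to 1.00. The box H/ACA snoRNAs SNORA8, SNORA18, SNORA32 and SNORA40 lie in introns of the same gene. In del/+ they differed from WT by -0.52, -0.36, 0.50 and -0.31, where snoZ40 differed by 1.80. The difference between snoZ40 and these was not tested.

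The box C/D entries outside SNORD113, summed, stood above WT in every altered library, and snoZ40 and Snord123 carried most of that rise. Without both, the CreERT2/del and WT libraries overlap, while the del/+ and CreERT2/+ libraries still lie above WT. The 10 entries, with snoZ40, stood at 10.4 to 11.1 CPM in WT and at 19.6 to 21.9 CPM in del/+. They stood at 13.4 to 19.9 CPM in CreERT2/+ and 13.2 to 19.5 CPM in CreERT2/del, so none of the 3 groups overlapped WT. The means were 10.9 ± 0.31 (SD, n = 4) in WT, 20.3 ± 1.08 in del/+, 16.3 ± 2.60 in CreERT2/del and 17.3 ± 2.97 in CreERT2/+. Of these means, snoZ40 gave 1.47 CPM in WT, 5.14 in del/+ and 3.95 in CreERT2/del. Snord123 gave 4.90 ± 0.636 CPM in WT, 8.08 ± 0.962 in del/+ and 6.84 ± 1.66 in CreERT2/del. The Snord123 entry spans 1482 bases of exons over about 4 kb, so its counts are not those of a snoRNA alone. Snord104 had 0.641, 1.21, 0.694 and 0.447 CPM in WT and 1.49, 1.24, 1.87 and 1.85 in del/+, an unadjusted p of 0.0102 and an adjusted p of 0.687. U3 (ENSMUSG00000070168), of the family that helps cleave the ribosomal RNA precursor, had 0.202 ± 0.151 CPM in WT and 0.791 ± 0.284 in del/+ (unadjusted p = 0.00466 by edgeR, adjusted 0.545). Snord118, also called U8 and needed for large-subunit ribosomal RNA, had 0.504 ± 0.264 and 1.27 ± 0.696 (0.0244 and 0.793).

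**Figure D3:**
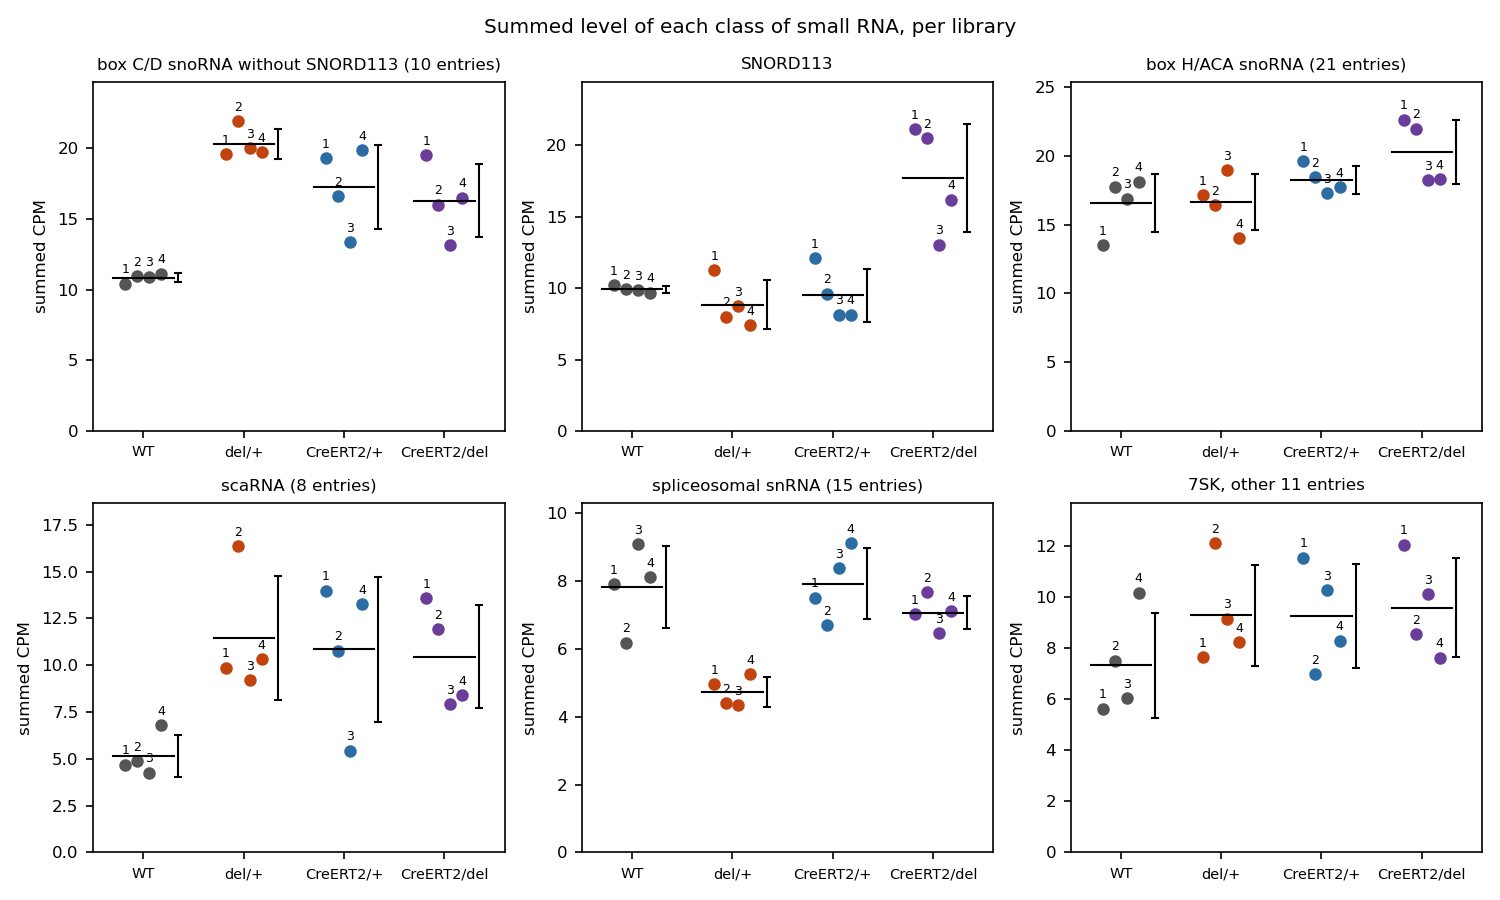
Summed CPM of each class of small RNA in each of the 16 libraries; numbered points are libraries, horizontal bars are group means and error bars are SDs over 4 libraries. The box C/D panel has all 12 altered libraries above the 4 WT libraries, the SNORD113 panel has all 4 CreERT2/del libraries above the other 12, and the snRNA panel has del/+ below WT.

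SNORD113 snoRNAs, a repeated family of the imprinted Dlk1-Dio3 region with no settled target, were highest in CreERT2/del. Summed over 10 entries, they stood at 10.2, 9.90, 9.86 and 9.68 CPM in WT and at 21.1, 20.5, 13.0 and 16.2 CPM in CreERT2/del. No CreERT2/del library overlapped WT, and the lowest was CreERT2/del 3. The sum was 7.39 to 11.2 CPM in del/+ and 8.14 to 12.1 CPM in CreERT2/+, both overlapping WT. All 10 entries had their highest mean in CreERT2/del, and all 10 differed upward from WT there, by 0.43 to 1.33 on the log2 scale with a median of 0.89. In del/+ 4 of 10 and in CreERT2/+ 3 of 10 lay above 0. The entry ENSMUSG00000089517 met the count minimum through its CreERT2/del counts, so its higher level there is no separate support.

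None of the SNORD113 entries passed the adjusted threshold. The closest was ENSMUSG00000064452, with 1.84, 1.08, 2.03 and 1.47 CPM in WT and 2.99, 3.57, 3.28 and 3.71 in CreERT2/del. Its groups did not overlap, and its difference of 1.08 ± 0.28 had an adjusted p of 0.119. ENSMUSG00000088294 had 1.69, 2.11, 1.26 and 2.52 CPM in WT and 4.27, 3.16, 2.68 and 3.19 in CreERT2/del, with 0.80 ± 0.30 and an adjusted p of 0.551. By unadjusted p under 0.05, 4 of 10 were higher in CreERT2/del than in WT (all genes 3.13%). The entries are not copies of 1 sequence: over 45 pairs the identity ran from 53.7% to 80.6% with a median of 62.7%, and 0 pairs were identical. Both boxes, as spelled above, were found in 3 of the 10.

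Rian, in whose introns 8 of the 10 lie, also had its highest mean in CreERT2/del. Its CPM was 81.9, 86.4, 76.3 and 82.2 in WT and 143.7, 161.3, 98.7 and 130.1 in CreERT2/del, which do not overlap. The log2 difference was 0.71 ± 0.20 with an adjusted p of 0.182, and 0.14 ± 0.20 and 0.04 ± 0.20 in del/+ and CreERT2/+. Reads from an intron of Rian and from a snoRNA inside it share the same bases, and their parts in the counts were not tested.

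**Figure D4:**
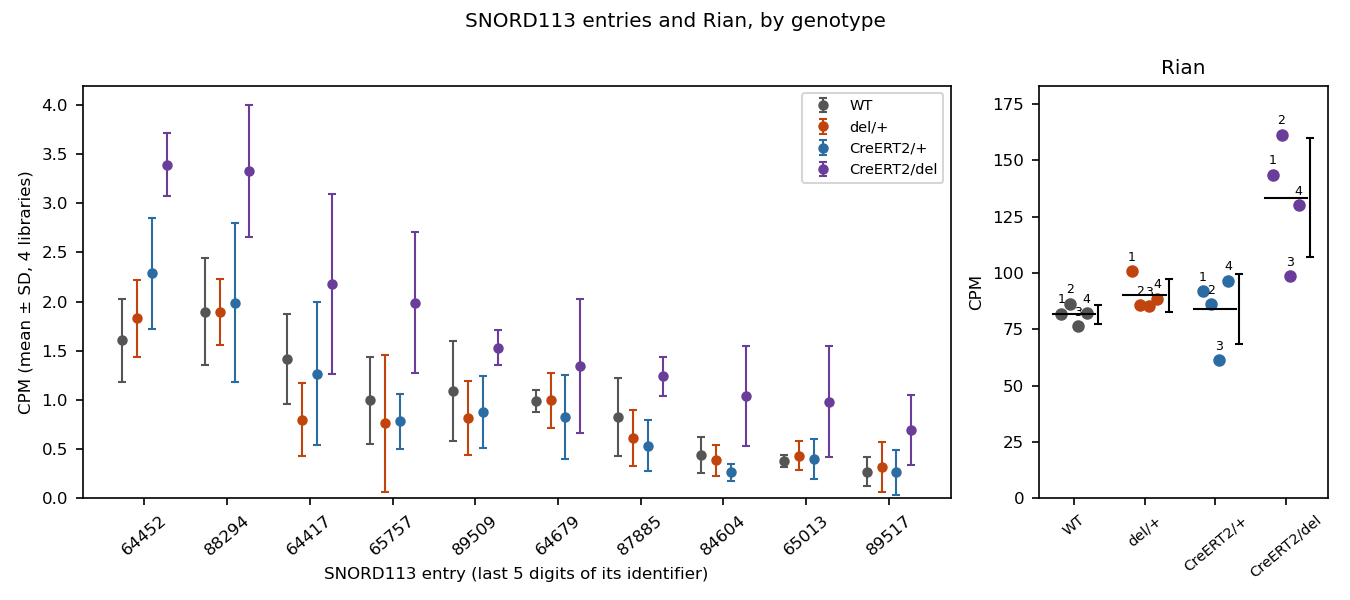
Mean CPM ± SD over 4 libraries of the 10 SNORD113 entries in each genotype (left), and CPM of Rian in each library with the group mean and SD (right). The CreERT2/del mean is the highest of the 4 for all 10 entries and for Rian.

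No box H/ACA snoRNA passed the threshold. Their 21 entries summed to 13.5 to 18.1 CPM in WT, 14.0 to 19.0 in del/+, 18.2 to 22.7 in CreERT2/del and 17.3 to 19.6 in CreERT2/+, and only the CreERT2/del group did not overlap WT. Per length the highest were Snora23 at 15.8, SNORA8 at 10.9, SNORA32 at 10.2, SNORA66 at 9.95 and SNORA18 at 8.91 CPM per kb. Snora23 stood out in CreERT2/del, with 0.962, 1.80, 1.42 and 2.81 CPM in WT against 6.86, 4.85, 3.49 and 2.92. These did not overlap, and the difference of 1.36 ± 0.38 had an adjusted p of 0.179. Its host Ipo7, an importin gene, was at 65.1 ± 2.09 and 69.1 ± 2.04 CPM in the same genotypes. SNORA46 lay at 0.962 to 1.58 CPM in WT and below that in every library of CreERT2/+ (mean 0.695 ± 0.109) and of CreERT2/del (0.527 to 0.722), with -0.68 ± 0.48 and -0.85 ± 0.48 and unadjusted p of 0.173 and 0.0919. SNORA79 (ENSMUSG00000080365) had 0.396 ± 0.252 CPM in WT and 0.936 ± 0.330 in del/+, with 1.23 ± 0.51 and an adjusted p of 0.793. SNORA74 differed by -0.84 ± 0.56 in CreERT2/+, and snoU109 by -0.74 ± 0.47, neither under an unadjusted p of 0.05.

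ScaRNAs were higher than in WT in most altered libraries. Their 8 entries summed to 4.69, 4.89, 4.25 and 6.81 CPM in WT and to 9.87, 16.4, 9.20 and 10.3 CPM in del/+. In CreERT2/del the sums were 13.6, 11.9, 7.93 and 8.40 CPM, again above every WT library. CreERT2/+ had 14.0, 10.8, 5.44 and 13.3 CPM, of which library 3 lay within the WT range. In each comparison 7 of the 8 entries lay above 0.

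Scarna2, a scaRNA that guides methylation of U2 snRNA, passed the threshold in CreERT2/del by a narrow margin. Its CPM was 0.700, 1.18, 0.775 and 1.26 in WT. It was 3.16, 5.40, 2.95 and 3.70 in del/+, 5.60, 3.40, 1.16 and 5.12 in CreERT2/+, and 6.08, 4.61, 1.89 and 2.66 in CreERT2/del. The del/+ and CreERT2/del groups did not overlap WT, and CreERT2/+ did through library 3. The log2 differences were close, at 1.95 ± 0.43, 1.93 ± 0.43 and 1.93 ± 0.43, with adjusted p of 0.0975 in del/+, 0.0494 in CreERT2/del and 0.192 in CreERT2/+. The CreERT2/del call was lost on leaving out any one of 13 of the 16 libraries, with adjusted p up to 0.196, and kept without CreERT2/+ 3, CreERT2/+ 4 or CreERT2/del 3. It was also lost by limma-voom (adjusted p = 0.262) and in edgeR with DESeq2 size factors (0.0539). Without CreERT2/+ 3 the del/+ and CreERT2/+ values passed as well, at 0.00439 and 0.00191.

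Other scaRNAs gave less certain values. Scarna9 had 0.729, 0.695, 0.267 and 0.263 CPM in WT and 0.915, 4.44, 1.15 and 2.54 in del/+, with 2.20 ± 0.54 and an adjusted p of 0.220. Its host 5830418K08Rik differed by -0.09 ± 0.19 there. snoU2_19, the neighbour of Scarna9, had 1.98 ± 0.357 CPM in WT and 3.62 ± 1.11 in del/+, with 0.87 ± 0.38 and an adjusted p of 0.825. It was classed with the other snoU entries and is not in the scaRNA sum. Scarna13 had 0.175, 0.257, 0.0267 and 0 CPM in WT and 1.64, 1.24, 0.382 and 1.46 in del/+, an adjusted p of 0.295. It stayed at 0.204 ± 0.199 and 0.298 ± 0.284 CPM in CreERT2/+ and CreERT2/del. SCARNA17 had 0.406 CPM on average in WT and 1.75 in CreERT2/+, with 2.08 ± 0.55 and an adjusted p of 0.466. Scarna3a and snoU90 had 7.96 and 4.81 CPM per kb, against 20.2 for Scarna9, 7.50 for Scarna2 and 7.33 for SCARNA17.

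The entries classed as spliceosomal snRNAs by their symbols were the class whose sum lay below WT in del/+ without overlap. Summed over 15 entries, they stood at 7.90, 6.17, 9.08 and 8.10 CPM in WT and at 4.96, 4.40, 4.34 and 5.24 CPM in del/+, which do not overlap. In CreERT2/+ the sum was 6.70 to 9.12 and in CreERT2/del 6.47 to 7.67 CPM, both overlapping WT. In del/+ 13 of 15 entries lay below 0, with a median of -0.77. Some of these entries met the count minimum through WT, where they were high, so their lower level in del/+ is no separate support. U6 (ENSMUSG00000089613), U6 (ENSMUSG00000064615) and U4 (ENSMUSG00000088250) were among them, and the sum and median rest in part on such entries. Single entries did not pass: U6 (ENSMUSG00000089613) had 0.467, 0.283, 1.04 and 0.342 CPM in WT and 0.114, 0, 0.139 and 0.0430 in del/+, with -2.75 ± 0.78 and an adjusted p of 0.368. U4 (ENSMUSG00000084440) differed by -1.57 ± 0.67, U6 (ENSMUSG00000088647) by -0.98 ± 0.44 and U6 (ENSMUSG00000065943) by -1.22 ± 0.60, with unadjusted p of 0.0301, 0.0354 and 0.0548. In the CreERT2 genotypes the lowest p among lower entries were those of U4 (ENSMUSG00000088250), at -0.79 ± 0.56 in CreERT2/del and -1.03 ± 0.57 in CreERT2/+, and in CreERT2/del U6 (ENSMUSG00000064615) at -0.80 ± 0.59 and U4 (ENSMUSG00000084440) at -0.58 ± 0.63.

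These snRNA entries are sequence copies rather than 1 U6 RNA, and whether any of them gives a working snRNA was not tested. The 7 U6 entries with a reference transcript were 62.4% to 82.2% identical over 21 pairs, 0 pairs were identical, and 14 of the 15 snRNA entries lie inside other genes. Reads of those genes' introns cannot be told apart from reads of the copies, as counting by strand is not stated. Per length the highest were U6 ENSMUSG00000088647 (9.13 CPM per kb), ENSMUSG00000089250 (8.09), ENSMUSG00000065855 (6.83) and ENSMUSG00000065943 (4.86), and U4 ENSMUSG00000084440 (3.64).

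The 12 members outside any other gene had median log2 differences of 1.07 in del/+, 1.09 in CreERT2/del and 0.67 in CreERT2/+, and in CreERT2/del all 12 lay above 0. For the 47 members inside a gene on its strand the medians were in the same order 0.10, 0.35 and 0.15, and for the 19 on the opposite strand -0.31, -0.24 and 0.03. Set against the genes that hold them, 46 same-strand members in 33 tested genes differed by a median of 0.10 in del/+, 0.34 in CreERT2/del and 0.15 in CreERT2/+, and their genes by 0.03, 0.09 and 0.04. Across these members, which share libraries and in part genes, Pearson's r between member and gene was 0.01, 0.33 and -0.16. None of the holding genes passed the threshold by edgeR in any of the 3 comparisons.

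**Figure D5:**
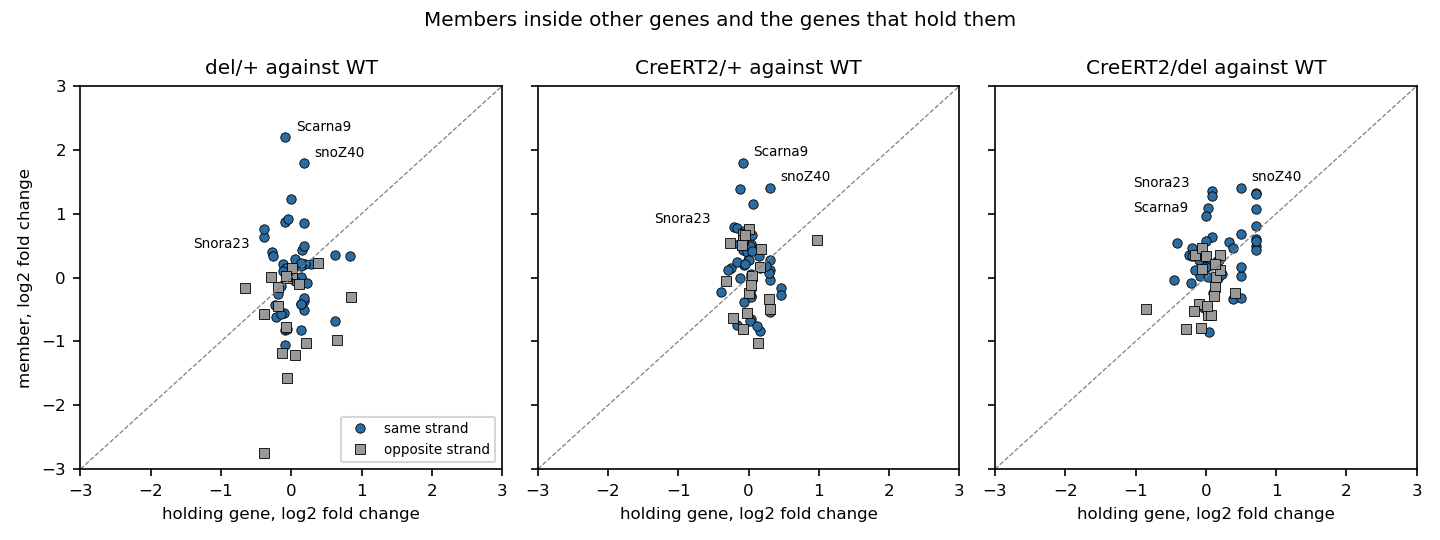
Log2 fold change from WT of each member inside another gene (vertical axis) against that of the gene that holds it (horizontal axis), in the 3 comparisons; circles are on the strand of the gene and squares on the opposite strand, and the dashed line marks equal change. The members, most of them with far fewer counts than their genes, spread more widely than those genes, and snoZ40 and Scarna9 lie above the line in all 3 panels.

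Replication-dependent histone mRNAs, which also end without a poly(A) tail, had a higher mean sum in each altered genotype than in WT, and their part in the results above was not tested. The 70 genes of the list summed to 441.3 to 793.4 CPM in WT and to 1041 to 1292 in del/+, 806.6 to 1613 in CreERT2/del and 334.4 to 2226 in CreERT2/+. The lowest of all 16 libraries was CreERT2/+ 3, where 7SK and Scarna2 were lowest in their genotype too. Of 56 tested, 3 rose in del/+ (Hist1h2ai, Hist1h4c and Hist2h2ac), 1 in CreERT2/+ (Hist1h2ai) and 3 in CreERT2/del (Hist1h3a, Hist1h2ai and Hist1h4c), with list medians of 0.95, 1.04 and 1.00 on the log2 scale. Matching small RNA symbols below the count minimum summed to 43.2 CPM in WT, 39.5 in del/+, 52.8 in CreERT2/del and 52.7 in CreERT2/+ on average.

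Genes for the proteins that carry and make these RNAs did not pass the threshold by edgeR in any comparison with WT. Of the box C/D snoRNP proteins 11 were tested, of the box H/ACA snoRNP proteins 9, of the RNase P and RNase MRP proteins 10 and of the spliceosomal snRNP proteins 32. A further 33 genes of snRNA transcription and 3′ processing, 27 of Cajal bodies, snRNP assembly and RNA turnover and 42 host genes of snoRNAs were tested. Their medians lay between -0.14 and 0.19 on the log2 scale in the 3 comparisons. In CreERT2/del against WT genes with the lowest p in their lists were Znhit6 (0.21 ± 0.20), Nolc1 (0.28 ± 0.24), Rpp25 (0.81 ± 0.41), Prpf3 (-0.26 ± 0.20), Exosc8 (0.32 ± 0.25) and Nfatc2ip (1.13 ± 0.52), with unadjusted p from 0.0397 to 0.301. In del/+ some p were lower: Rpp25, a protein of RNase P and RNase MRP, differed by 1.17 ± 0.41 (unadjusted p = 0.00940, adjusted 0.669, by edgeR) and Snrpd3, a core protein of spliceosomal snRNPs, by 1.18 ± 0.52 (0.0328 and 0.825).

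Markers of other tissues did not pass either. Heart muscle markers (11 tested) had a median of 0.16, 0.18 and 0.13 in del/+, CreERT2/+ and CreERT2/del, red blood cell markers (8) of 0.16, -0.01 and -0.24 and neural markers (5) of -0.12, 0.07 and -0.01. Liver and endoderm markers (6) had 2.47, -0.89 and 0.69, and summed to 0.617 to 39.1 CPM in WT, 1.25 to 254.7 in del/+, 5.06 to 29.6 in CreERT2/del and 0.514 to 14.4 in CreERT2/+. In CreERT2/del against WT the lowest p were those of Myh7 (0.66 ± 0.24), Slc4a1 (-0.61 ± 0.33), Dcx (1.38 ± 0.43) and Alb (4.38 ± 1.90), with adjusted p from 0.314 to 0.963.

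The altered genotypes were also compared with each other, and 0 members passed by edgeR, by DESeq2 and by limma-voom in each of these 3 comparisons. Of all genes edgeR called 0% higher and 0.0205% lower in CreERT2/del against del/+, 0.0205% and 0.0547% in CreERT2/del against CreERT2/+, and 0% and 0% in del/+ against CreERT2/+. At an unadjusted p under 0.05, 12 members were higher and 4 lower in CreERT2/del than in del/+, 5 higher and 1 lower in CreERT2/del than in CreERT2/+, and 3 higher and 4 lower in del/+ than in CreERT2/+. The shares of all genes were 2.87% and 2.21%, 1.62% and 2.35%, and 1.72% and 2.46%. Groups did not overlap for 6 members as higher and 2 as lower in CreERT2/del against del/+ (all genes 2.47% and 1.72%), for 6 and 0 in CreERT2/del against CreERT2/+ (1.24% and 1.25%), and for 2 and 2 in del/+ against CreERT2/+ (0.883% and 1.44%). The chromosome 9 entry of 7SK differed by -1.50 ± 0.51 in CreERT2/del against del/+ (unadjusted p = 0.00730 and adjusted p = 0.767 by edgeR) and by 1.50 ± 0.51 in del/+ against CreERT2/+ (0.00752 and 0.997). SNORD113 ENSMUSG00000064452 was higher by 0.89 ± 0.28 in CreERT2/del than in del/+ (adjusted p 0.724), and SNORD113 ENSMUSG00000084604 by 1.91 ± 0.52 than in CreERT2/+ (0.352). A p that misses the threshold does not show that the genotypes have the same level.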

How the data were processed

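RNA of 16 embryonic heart samples, 4 per genotype, was sequenced after Qiazol and miRNeasy micro extraction and Ovation RNA-seq system V2 amplification, per the labels' protocols. The submitters' processing notes name mm9, TopHat2, featureCounts and edgeR; versions and any strand setting: not given in the sources used here. The authors deposited raw whole-number counts per gene, which the unit table lists under the expected count unit only because of their column names; no value was rounded. A further 52 columns of per-sample or mean values were not used.

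Counts were scaled by TMM, filtered with filterByExpr (14612 genes, among them all 78 members) and fitted with edgeR 4.0.16's quasi-likelihood test in R 4.3.3, with 1 mean per genotype over all 16 libraries and 12 residual degrees of freedom. P-values were adjusted by Benjamini-Hochberg over all genes tested, with a threshold of 0.05. The SE is the log2 fold change over the square root of F. limma 3.58.1 (voom), DESeq2 1.42.0, other scalings, other filters and leaving out libraries were alternatives. The code was tested on simulated data. No pair of libraries of a genotype agreed within counting error, the lowest chi-square over its degrees of freedom being 22.9. Library totals of 21436305 to 42731841 counts set the precision, and floors cover counting error only.

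Named are members past the threshold, the 4 with the lowest p in each direction against WT, up to 5 per class with the highest counts per length, and the leading gene of each list, of which 1 is not reported here. Other members shown for their role, such as SNORA79 and Snord118, were chosen after their values were seen. The members and lists were chosen with earlier results of these data known.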

Additional observations from a re-analysis of the deposited data

Results flagged for a closer look

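In 36 sets of 4 libraries, 2 held a library far from the other 3 by Dixon's criterion, which chance meets in about 1 set of 20. The chromosome 9 entry of 7SK stood at 29.6 CPM in WT 2 against 12.3 to 13.3 CPM in the other WT libraries, a gap of 0.938 of the range. The summed scaRNAs stood at 16.4 CPM in del/+ 2 against 9.20 to 10.3 CPM in the other del/+ libraries, a gap of 0.844 of the range.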

How the results depend on the processing

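The count of members past the threshold in del/+ against WT was 2 and became 6 with no filter on low counts, 1 with a mean of at least 5 CPM (2 members tested), 6 by DESeq2, 5 with the mitochondrial ribosomal RNA share as a covariate, 4 without the 3 libraries lowest in it, 4 with only the 2 genotypes compared, and 2 to 4 with 1 library left out. In CreERT2/+ against WT it was 0 and became 5 with no filter, 3 by DESeq2, 1 by limma-voom, 3 with the covariate, 2 without the 3 libraries, 1 with only the 2 genotypes compared, and 0 to 3 with 1 library left out. In CreERT2/del against WT it was 3 and became 4 with no filter, 2 with DESeq2 size factors (Scarna2 lost), 2 with only the 2 genotypes compared (snoZ40 lost), 1 with a mean of at least 5 CPM, 5 by DESeq2, 1 by limma-voom (7SK), 4 without the 3 libraries and 0 to 3 with 1 library left out. Over the settings against WT, 0.0855% to 0.423% of all genes were called in del/+ and 0.0197% to 0.257% in CreERT2/+. For CreERT2/del against WT it was 0.159% to 0.883%. With no filter 1 member passed in CreERT2/del against del/+ (all genes 0.229%) and 1 in del/+ against CreERT2/+ (all genes 0.127%). With the replicate number as a block 4, 1 and 3 members passed against WT; the labels pair nothing, 3 of 24 same-number pairs of libraries had a correlation over 0.1, and 8 of 16 libraries correlated best with their own number. The summed box C/D difference in del/+ was 0.83 on the log2 scale, from 0.90, with total counts outside mitochondrial ribosomal RNA. The exact test of 7SK gave 2.60 (p = 0.0571) in CreERT2/+ with DESeq2 size factors, and without the 3 libraries 3.09 in CreERT2/+ and 2.91 in CreERT2/del (p = 0.1, the smallest 3 against 3 allow). With 1 library left out its differences ran from 3.69 to 4.40, 2.38 to 3.17 and 2.25 to 2.99 in del/+, CreERT2/+ and CreERT2/del, and p was 0.0571 in 7 of these runs, all without a WT library. Class sums near WT crossed 0 on the log2 scale with 1 library left out: box H/ACA in del/+ ran from -0.080 to 0.080, SNORD113 in CreERT2/+ from -0.20 to 0.0044 and snRNAs in CreERT2/+ from -0.078 to 0.0998; the first was -0.063 with total counts outside mitochondrial ribosomal RNA. The cause of these shifts was not tested. Low counts limit the precision of entries under 1 CPM.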
